A study of Mus musculus with 16 samples.

Results

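ChIP-seq for OCT4, the transcription factor encoded by Pou5f1, was examined at 10 genes of the POU family in mouse embryonic stem (ES) cells. A peak was assigned to a gene if its midpoint lay inside the gene body or within 100 kb of any annotated transcription start site (TSS) of that gene in GENCODE M21, on build GRCm38 (mm10). By this rule 49 of the 26704 OCT4 peaks in the list belonged to the 10 genes, of which 13 were assigned to Pou5f1 and 36 to its 9 paralogs Pou2f1, Pou2f2, Pou2f3, Pou3f1, Pou3f2, Pou3f3, Pou4f1, Pou4f2 and Pou6f1. No peak was assigned to more than 1 of these genes. The rule used family membership and position alone, so the number of peaks at each gene was not used to choose it.

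The series asked how loss of SOX2 or OCT4 alters the chromatin of ES cells, and holds 16 ChIP-seq libraries in 8 groups of 2. The peak list was made from OCT4 ChIP in 2TS22C cells, an ES cell line in which the Sox2 supply comes from a Tet-Off promoter and can be shut off with doxycycline. Of the 4 OCT4 libraries, 2 were from untreated cells (SOX2 ON) and 2 from cells given 1 µg/ml doxycycline for 26 h (SOX2 OFF), and all were grown in serum with LIF and the inhibitors CHIR99021 and PD184352. The other 12 libraries profiled the chromatin remodeler BRG1 and the histone mark H3K27ac in 2TS22C cells, and H3K27ac in ZHBTc4 cells at 24 h, in which Pou5f1 itself is under a Tet-Off promoter, and were not analysed here. According to the study, SOX2 is not fully depleted at this time of treatment. The list merges peaks and gives coordinates only, so SOX2 ON and SOX2 OFF cannot be told apart in it, there are no replicates, the depth is unknown, and a missing peak may be a peak below the calling threshold.

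POU proteins bind DNA through a bipartite POU domain, made of a POU-specific domain and a POU homeodomain joined by a flexible linker. Many of them recognise the octamer ATTTGCAT, and OCT4 also binds with SOX2 on a composite element in which an octamer-like site lies next to a SOX site. Pou5f1 is a core gene of the pluripotency network. The paralogs act largely in other lineages: Pou2f1 (OCT1) is expressed in most cell types, Pou2f2 (OCT2) is best known in B cells and Pou2f3 in tuft cells and epidermis, the POU3 genes in the nervous system, and the POU4 genes in sensory neurons.

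The sequences below are the stretches of the member peaks that held a composite motif or an octamer, and they are shown because the composite motif and exact octamer results rest on them. Peaks with a SOX core alone, or with an octamer only when 1 mismatch is allowed, are not printed. Capitals mark the match and lower case the flanks. The composite motif was ATTTGCAT followed directly by AACAATG, with at most 3 mismatches over its 15 bases, and the octamer ATTTGCAT was searched without mismatch. Both strands were searched, and an octamer may lie inside a composite motif. Each stretch is written 5′ to 3′ on the strand of its gene, so a match on the opposite strand appears as its reverse complement. In the Pou2f1 intron the first capital stretch is a composite motif that holds an octamer. All were read from the GRCm38 reference.
Pou5f1 peak 1.96 kb upstream, chr17:35503914-35504213, plus strand: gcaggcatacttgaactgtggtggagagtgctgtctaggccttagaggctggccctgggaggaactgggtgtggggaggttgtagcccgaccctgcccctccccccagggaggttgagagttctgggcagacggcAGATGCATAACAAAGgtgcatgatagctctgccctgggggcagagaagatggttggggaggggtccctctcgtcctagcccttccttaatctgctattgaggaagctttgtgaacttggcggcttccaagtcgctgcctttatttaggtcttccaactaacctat
Pou5f1 peak 34.7 kb downstream, chr17:35543495-35543569, plus strand: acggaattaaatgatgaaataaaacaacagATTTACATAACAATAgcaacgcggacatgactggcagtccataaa
Pou2f1 intron, chr1:165935171-165935368, minus strand: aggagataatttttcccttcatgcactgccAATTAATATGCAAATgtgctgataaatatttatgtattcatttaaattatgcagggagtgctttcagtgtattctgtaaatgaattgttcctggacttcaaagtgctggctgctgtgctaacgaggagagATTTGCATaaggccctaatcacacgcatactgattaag
Pou2f1 peak 31.1 kb upstream, chr1:166033755-166033822, minus strand: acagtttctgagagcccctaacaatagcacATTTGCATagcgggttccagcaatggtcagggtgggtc
Pou2f3 intron, 16.8 kb downstream, chr9:43188872-43188939, minus strand: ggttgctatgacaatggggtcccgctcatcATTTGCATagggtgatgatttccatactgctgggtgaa
Pou2f3 intron, 5.50 kb downstream, chr9:43200370-43200486, minus strand: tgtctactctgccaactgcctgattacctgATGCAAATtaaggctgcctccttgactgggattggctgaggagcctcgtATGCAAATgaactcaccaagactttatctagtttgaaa
Pou2f3 intron, 0.199 kb downstream, chr9:43210113-43210179, minus strand: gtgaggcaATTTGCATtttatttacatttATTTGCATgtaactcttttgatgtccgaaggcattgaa
Pou3f3 peak 18.0 kb downstream, chr1:42713515-42713589, plus strand: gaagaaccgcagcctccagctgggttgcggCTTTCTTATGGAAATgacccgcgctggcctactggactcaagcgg

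**Figure D1:**
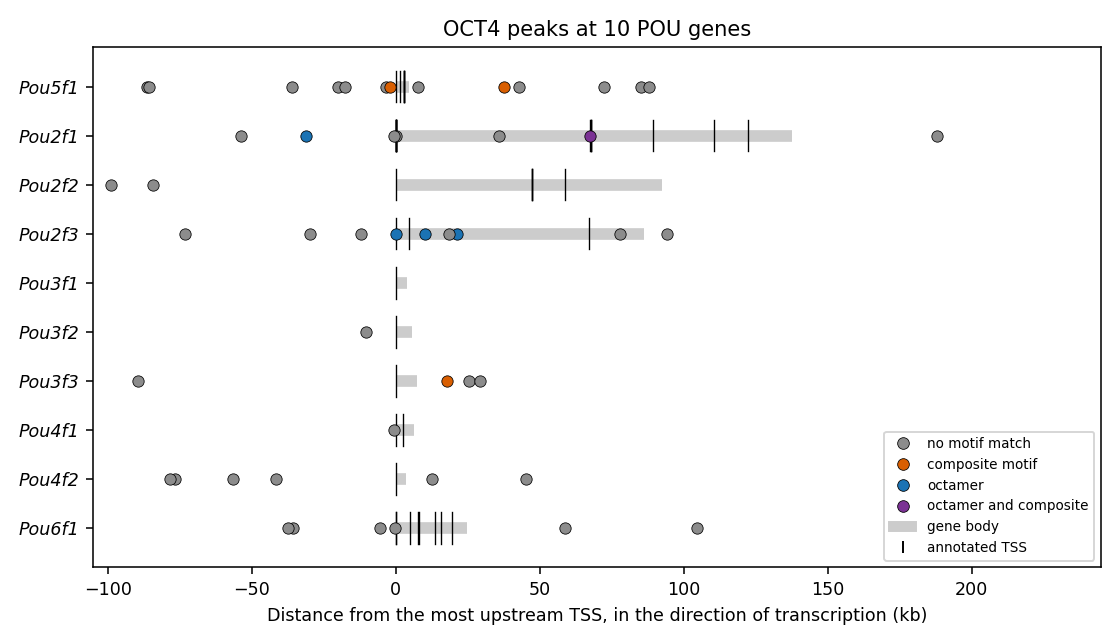
Each point is the midpoint of an OCT4 peak, placed by its distance in kb from the most upstream TSS of its gene (x axis, in the direction of transcription) for the 10 POU genes (rows). Grey bars are gene bodies, black ticks annotated TSSs, and colours motif content. Pou5f1 had 13 peaks and none in its gene body, Pou3f1 had 0, and the 5 peaks with an octamer were at Pou2f1 and Pou2f3.

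Pou5f1 (ENSMUSG00000024406.16, chr17:35506018-35510772, plus strand) had 13 OCT4 peaks, or 6.41 peaks per 100 kb of its window of 203 kb. By the 100 kb rule Pou5f1 had more peaks than any paralog, though not under all the alternatives given below. Of protein-coding genes, 99.2% had fewer peaks. At least as many peaks were found at 0.775% of protein-coding genes (170 of 21938), and Pou5f1 was the single member among them. Of its peaks, 3 lay within 10 kb of a Pou5f1 TSS, 5 within 25 kb and 8 within 50 kb. None lay within the gene body, which spans 4.75 kb, and 12 of 13 were intergenic. Intergenic here means only that the midpoint lay in no annotated gene. It includes peaks just upstream of a TSS, such as that 5 bp from a TSS of H2-Q10 described below. Widths ran from 207 to 614 bp with a median of 298 bp.

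Upstream of Pou5f1, the nearest peak was 464 bp wide with its midpoint 1.96 kb from the TSS (chr17:35503832-35504295). It held a composite motif with 3 mismatches, whose centre was 7 bp from the midpoint of the peak, and it is the first sequence printed above. A peak of 398 bp followed at 3.25 kb (chr17:35502567-35502964). Mouse Pou5f1 is known to have a proximal and a distal enhancer in its upstream region. Peaks of 238 bp and 218 bp then lay 17.6 and 20.1 kb upstream, and 1 of 220 bp lay 35.9 kb upstream with its midpoint 5 bp from a TSS of H2-Q10, a class I histocompatibility gene. The remaining upstream pair lay at 85.7 and 86.4 kb, nearer to H2-Q6 than to Pou5f1. In that pair 29.5% and 18.6% of 31-base words are multi-copy, found elsewhere in the genome too, and whether reads from other copies contributed was not tested.

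Downstream of Pou5f1, the nearest peak was 207 bp wide, lay 5.02 kb from a Pou5f1 TSS and fell in an intron of Tcf19 (chr17:35513742-35513948). The widest Pou5f1 peak, of 614 bp, lay 34.7 kb downstream (chr17:35543252-35543865). It held the other composite motif, which had 2 mismatches and was centred 26 bp from the peak midpoint. A peak of 298 bp followed at 40.0 kb, and both were nearest to Cdsn, which encodes the skin protein corneodesmosin. The last 3 downstream peaks lay at 69.7, 82.5 and 85.1 kb and were 410, 454 and 477 bp wide. The nearest TSS was that of 2300002M23Rik for the first of them and of Sfta2 for the other two, in which 12% and 30.0% of 31-base words were multi-copy.

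**Figure D2:**
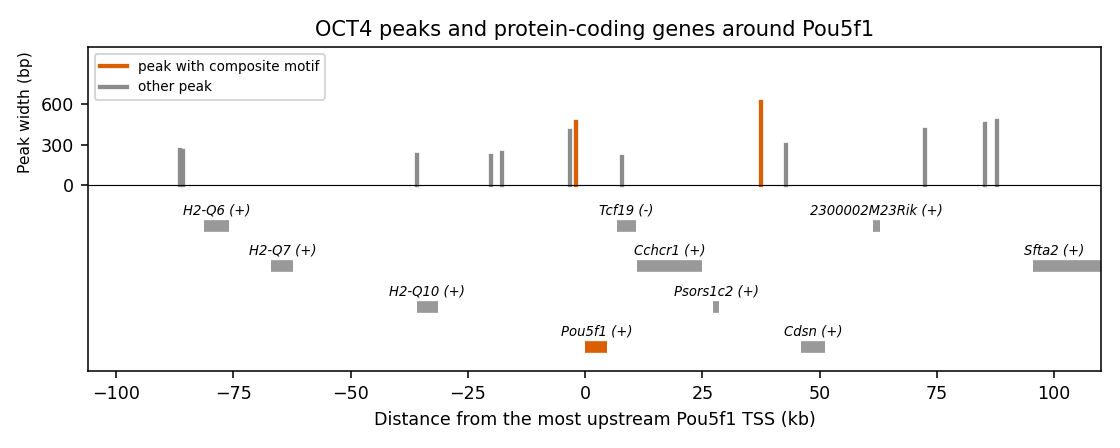
Vertical bars are the 13 OCT4 peaks assigned to Pou5f1, placed by distance in kb from its most upstream TSS (x axis), with bar height giving peak width in bp. Horizontal bars below are protein-coding genes, with strand in brackets and rows used only to separate names. Both peaks with a composite motif (orange), of 464 and 614 bp, were wider than the median of 298 bp, and no peak lay over the Pou5f1 gene body.

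The Pou5f1 window is rich in genes, with TSSs of 9 other protein-coding genes against a median of 4.00 over all protein-coding genes. Only 3 of the 13 peaks (23.1%, exact interval 5.04 to 53.8%) had Pou5f1 as their nearest protein-coding TSS, those at 1.96, 3.25 and 17.6 kb upstream. The other 10 were nearer to H2-Q6, H2-Q10, Tcf19, Cdsn, 2300002M23Rik or Sfta2. Among the 3890 protein-coding genes with 9 or more other genes in their window the median was 4.00 peaks, and 99.2% of them had fewer peaks than Pou5f1, a comparison added after the values were seen. Which gene, if any, each peak acts on was not tested. Intervals in the text are 95% exact (Clopper-Pearson) intervals, which cover counting error only and take peaks of 1 locus as separate.

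The 9 paralogs had 36 peaks together, with a mean of 4.00 ± 3.16 per gene (SD over 9 genes, not over replicates) and a range of 0 to 9. At least 1 peak was found at 9 of the 10 POU genes, and at 85.7% of protein-coding genes under the same rule. Per 100 kb of window Pou5f1 had 6.41 peaks and the paralogs 1.74 together, a ratio of 3.69 (exact interval 1.79 to 7.12), and the genome mean was 0.980. Over the windows of all 21938 protein-coding genes the median was 1.4 peaks per 100 kb and the upper quartile 2.25, so the paralogs together lay between these values. The densest paralog was Pou2f3 with 3.37 peaks per 100 kb. When a paralog was left out in turn, the ratio ran from 3.33 to 4.28. Counting only peaks nearest to the gene's own TSS, a choice made after the values were seen, left 3 peaks at Pou5f1 and 20 at the paralogs. The ratio then fell to 1.53, but it still divided by the full windows of 203 and 2071 kb. Other genes leave less of a window nearest to its own gene. The window of Pou5f1 held TSSs of 9 other protein-coding genes, and those of Pou3f2 and Pou3f3 held 0. How far this lowered the ratio was not tested.

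**Figure D3:**
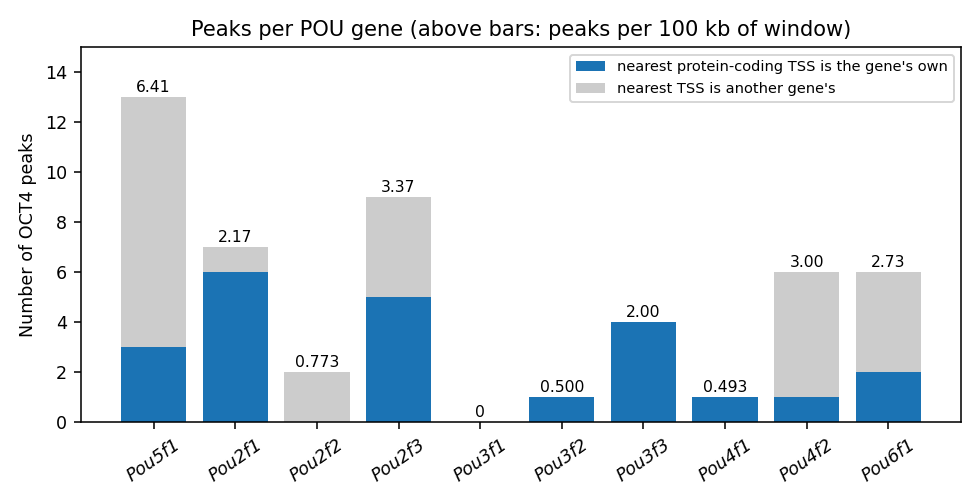
Bar height is the number of OCT4 peaks assigned to each POU gene, split into peaks whose nearest protein-coding TSS is the gene's own (blue) and another gene's (grey), and numbers above the bars are peaks per 100 kb of window. Pou5f1 had the most peaks, with 3 of 13 nearest to its own TSS. Among the paralogs this ran from 0 of 2 at Pou2f2 and 1 of 6 at Pou4f2 to 6 of 7 at Pou2f1 and 4 of 4 at Pou3f3.

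The POU2 genes held 18 peaks (2.12 per 100 kb), divided unevenly as 7, 2 and 9. Pou2f1 (chr1:165865154-166002678, minus strand) had 7 peaks, more than at 86.8% of protein-coding genes, and 6 of them were nearest to its own TSSs. Of these, 3 lay within 1 kb of an annotated Pou2f1 TSS. A peak of 383 bp (chr1:166002285-166002667) was centred 0.133 kb inside the gene from a start shared by 2 protein-coding transcripts, and a peak of 312 bp (chr1:166003186-166003497) lay 0.663 kb upstream of the most upstream start. The third, of 443 bp, lay in an intron 0.262 kb upstream of the start of a retained-intron transcript that begins 67.7 kb into the gene (chr1:165935052-165935494).

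This intronic Pou2f1 peak was the only member peak with both motifs. It held 2 octamers, one of which formed part of a composite motif with 3 mismatches, centred 58 bp from the midpoint. All 3 mismatches of that composite fell on the SOX side, since the octamer had none. The other octamer peak of Pou2f1 lay 31.1 kb upstream in an intron of Gm26665 (chr1:166033693-166033935). In that peak 97.9% of bases were repeat-masked and 74.6% of 31-base words were multi-copy, and the octamer lay in the repeat. The widest Pou2f1 peak, of 521 bp, was intergenic and lay 53.5 kb upstream, and the farthest, at 65.5 kb downstream, lay in an intron of Cd247.

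Pou2f3 (chr9:43123939-43210369, minus strand) had 9 peaks, the most of any paralog, and 94.7% of protein-coding genes had fewer. There were 5 in introns of the gene itself, 0.199, 5.50, 10.6, 14.0 and 16.8 kb from the nearest TSS, and these 5 were the ones nearest to its own TSSs. An octamer was present in 3 of these 5, with 2 copies in the 404 bp peak just inside the gene (chr9:43209969-43210372), 2 in the widest peak, of 759 bp (chr9:43199880-43200638), and 1 in the peak of 652 bp (chr9:43188676-43189327). The pair of octamers just inside the gene lay 3 and 24 bp from the peak midpoint, in repeat-masked bases of which no 31-base word was multi-copy. None of the 9 peaks held a composite motif. The 4 peaks outside the gene lay 12 to 73.1 kb from its TSSs, nearest to Tmem136, Oaf or Trim29.

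Pou2f2 (chr7:25087344-25179726, minus strand) had 2 peaks, 84.3 and 98.9 kb upstream, and no motif in either. Both were nearest to Cic, which encodes a transcriptional repressor, and the farther one was 0.208 kb from a Cic TSS. More peaks were found at Pou2f3 and Pou2f1 than at Pou2f2, which share a class, and the 2 Pou2f2 peaks would be lost to the gene under a window of 50 kb.

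The POU3 genes held 5 peaks (0.833 per 100 kb), the lowest density of any class. Pou3f1 (OCT6) had 0, and the closest peak in the list was 169 kb away. Of all protein-coding genes, 14.3% had 0 peaks. Pou3f2 (BRN2) had 1 peak of 385 bp, 10.3 kb upstream (chr4:22498518-22498902). It held no exact octamer and no composite motif, but 3 octamers when 1 mismatch was allowed. Pou3f3 (BRN1) had 4 peaks, all nearest to its own TSS, at 18.0, 25.4 and 29.4 kb downstream and 89.3 kb upstream. The downstream peaks fell in introns of AC122898.1 and the upstream one in an intron of Pantr1, a non-coding gene next to Pou3f3. The widest Pou3f3 peak, of 557 bp at 18.0 kb (chr1:42713446-42714002), held a composite motif with 3 mismatches, centred 172 bp from the midpoint.

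The POU4 genes held 7 peaks (1.74 per 100 kb). Pou4f1 (BRN3A) had 1 peak of 244 bp, 0.470 kb upstream of its TSS (chr14:104468348-104468591), and the closest other peak was 321 kb from it. Pou4f2 (BRN3B) had 6 peaks of 232 to 401 bp, of which 1, at 12.5 kb downstream, was nearest to its own TSS. The other 5 lay 41.7 to 78.2 kb away, nearest to Ttc29, Rbmxl1 or Slc10a7. Neither gene had a peak with an octamer or a composite motif.

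Pou6f1 held 6 peaks (2.73 per 100 kb) and none with an octamer or a composite motif. A peak of 434 bp was centred 0.156 kb upstream of its TSS (chr15:100599924-100600357) and another lay 5.30 kb upstream. The other 4 were nearest to Smagp, Tfcp2 or Csrnp2. The widest peak of any member, of 832 bp in an intron of Tfcp2, was 98.8% repeat-masked, and 65.3% of its 31-base words were multi-copy.

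**Figure D4:**
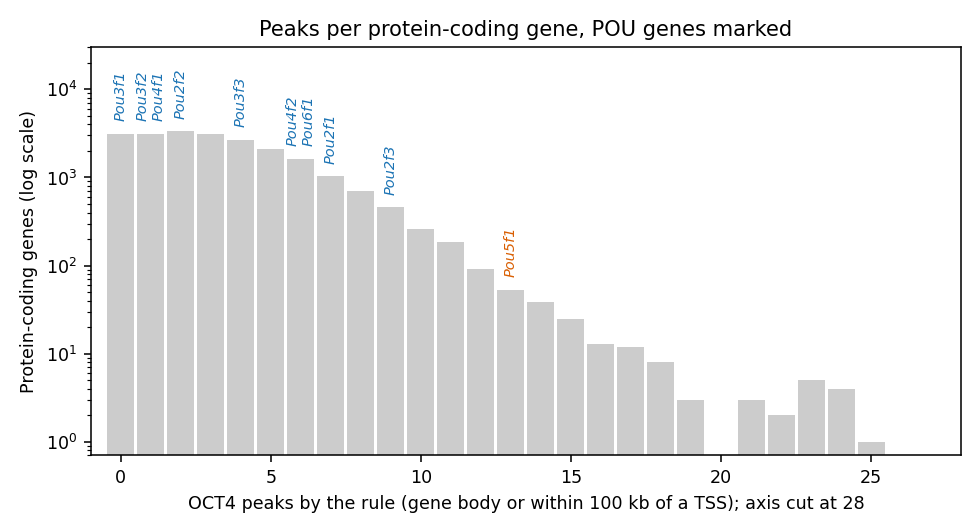
Grey bars give the number of protein-coding genes (y axis, log scale) with each number of OCT4 peaks by the same rule (x axis, cut at 28 while the maximum is 55), and names mark the POU genes. Pou5f1 sits at 13 peaks, above the 95th percentile of 9, and the paralogs sit from 0 to 9 around the median of 3.00.

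A peak centred within 1 kb of the gene's own TSS was found at 4 of the 10 POU genes (Pou2f1, Pou2f3, Pou4f1 and Pou6f1), and at 16.5% of protein-coding genes. Pou5f1 was not among them. Of the 13 Pou5f1 peaks 1 lay within 1 kb of any protein-coding TSS (7.69%, 0.195 to 36.0%), against 13 of 36 paralog peaks (36.1%, 20.8 to 53.8%) and 13.8% of the whole list. Another peak lay within 10 kb for 11 of the 13 Pou5f1 peaks (84.6%, 54.6 to 98.1%) and for 15 of 36 paralog peaks (41.7%, 25.5 to 59.2%), against 33.9% of the list. Intergenic positions made up 92.3% (64.0 to 99.8%) of the Pou5f1 peaks, 33.3% (18.6 to 51.0%) of the paralog peaks and 46.1% of the list. The intervals of Pou5f1 and the paralogs did not overlap here, but the rule includes the gene body. That body spans 4.75 kb at Pou5f1 and 138, 92.4 and 86.4 kb at Pou2f1, Pou2f2 and Pou2f3. How far this shaped the shares was not tested. Median widths were 298, 346 and 352 bp and median GC contents 48.5, 49.1 and 46.4% for Pou5f1, the paralogs and the list.

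No Pou5f1 peak held an octamer (0 of 13, upper limit 24.7%). An octamer was found in 5 of 36 paralog peaks (13.9%, 4.67 to 29.5%), all of them at POU2 genes, and in 11% of the list. The intervals of Pou5f1 and the paralogs overlapped and each contained the share of the list. An octamer peak was found at 2 of the 10 POU genes, Pou2f1 and Pou2f3, and at 26.7% of protein-coding genes. These 2 genes also had an octamer peak within 1 kb of their own TSS, as did 1.49% of protein-coding genes. For Pou2f1 the nearest such TSS was the start of the retained-intron transcript. Other Pou2f1 starts were annotated beside it, 67730, 67739 and 67778 bp into the gene. The peak also overlapped a RefSeq promoter of Pou2f1 (chr1:165934899-165935198). At least 2 octamers were held by 3 of the 36 paralog peaks (8.33%, 1.75 to 22.5%) and by 0.962% of the list, a count made after the values were seen. With 1 mismatch allowed, octamers were found in 3 of 13 Pou5f1 peaks (23.1%, 5.04 to 53.8%), 21 of 36 paralog peaks (58.3%, 40.8 to 74.5%) and 53.5% of the list.

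The composite motif was found in 2 of 13 Pou5f1 peaks (15.4%, 1.92 to 45.4%), in 2 of 36 paralog peaks (5.56%, 0.680 to 18.7%) and in 11.5% of the list. Genes with such a peak were 3 of the 10 POU genes (Pou5f1, Pou2f1 and Pou3f3), and 27.9% of protein-coding genes. The SOX core, CCATTGT or CCTTTGT, was found in 4 of 13 Pou5f1 peaks (30.8%, 9.09 to 61.4%), 8 of 36 paralog peaks (22.2%, 10.1 to 39.2%) and 30.3% of the list. A SOX core may overlap a composite motif, and they shared bases in the Pou5f1 peak 1.96 kb upstream. For both motifs the intervals of Pou5f1 and the paralogs overlapped and each contained the share of the list. Overlap of intervals is not a test of a difference, and none was made.

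**Figure D5:**
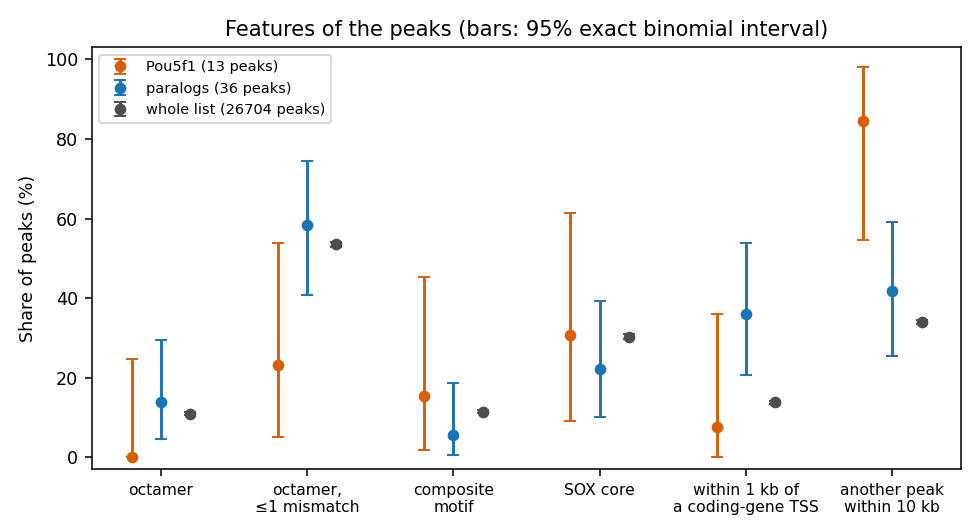
Points give the share of peaks (y axis, %) with each feature (x axis) for Pou5f1 (13 peaks), its paralogs (36 peaks) and the whole list (26704 peaks), and bars are 95% exact binomial intervals that cover counting error only. The intervals of Pou5f1 and the paralogs overlap for all 6 features plotted, which is not a test of a difference. The closest to separate is the share with another peak within 10 kb, at 84.6% and 41.7%.

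In the RefSeq promoter windows, from 250 bases before to 50 after each start on GRCm38.p6, 11 promoters of 8 members were matched. None held an octamer or a composite motif, and 1, a promoter of Pou5f1, held a SOX core. Over all 32851 promoters the shares were 1.74%, 0.968% and 9.28%. A listed peak overlapped 2 Pou2f1 promoters and the Pou6f1 promoter, and neither of the 2 Pou5f1 promoters.

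At the edge of the window, the farthest assigned peak was 98.9 kb from a TSS of Pou2f2, followed by 89.3 kb at Pou3f3 and 86.4 kb at Pou5f1. The closest peaks left outside were 101 kb away at Pou4f2 and 102 kb away at Pou6f1, whereas the next peak at Pou5f1 was 165 kb away.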

How the data were processed

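OCT4 ChIP-seq reads were aligned by the authors with STAR 2.6.1c, duplicates were removed with Picard, and chromosomes 1 to 19, X and Y were kept. Peaks were called with MACS2 2.1.1.20160309 in paired-end mode and merged with BEDTools. For each merged peak the deposited list gives its chromosome and its start and end position, with no height or count. Which libraries entered the merge is not stated, and merging makes a width the union of overlapping peaks.

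Coordinates were converted to 1-based positions and joined to GENCODE M21. Peaks per 100 kb used the union of gene body and TSS windows. Motifs were searched on both strands of the whole peak. A repeat-masked base is one in lower case in the reference, and a multi-copy word is a 31-base sequence found at more than 1 place. Promoters came from RefSeq, with Pou2f3 and Pou3f1 unmatched. No hypothesis test was made, since the list has no replicates. The shares of peaks have exact Clopper-Pearson intervals and the density ratio an exact conditional interval. On simulated data 200 of 200 planted motifs and 200 of 200 window counts were recovered.

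The members and lists were chosen with earlier results of these data known. By rule, all 10 members, every Pou5f1 peak and, of each paralog, the nearest, the widest and each motif-bearing peak were described. Alternatives changed the window, the peaks counted, the paralogs pooled and the motif definition. Python 3.11.15, NumPy 2.4.6, SciPy 1.17.1, pysam 0.24.0 and matplotlib 3.10.9 were used.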

Additional observations from a re-analysis of the deposited data

How the results depend on the processing

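Of 126 values under alternatives for 20 results, 85 stayed within the limits set for them, 41 moved and 0 reversed. Apart from the density ratio these results were counts or shares, which have no sign to reverse. The rank of Pou5f1 among the POU genes was not one of the 20 results, and its changes are given below. The density ratio stayed between 2.66 and 4.32 under the other windows, peak filters and sets of paralogs, inside its interval. The exception was 1.53, when only peaks nearest to the gene's own TSS were counted but the full windows were kept. Pou5f1 kept 5 peaks with a 25 kb window, 8 with 50 kb, 3 when nearest to its own TSS and 6 of at least 300 bp. The paralogs kept 16 with 25 kb, 20 when nearest to their own TSS and 23 of at least 300 bp. Pou5f1 therefore did not keep the highest count throughout. Pou2f3 had 6 peaks with 25 kb, 8 with 50 kb and 6 of at least 300 bp. When only peaks nearest to the gene's own TSS were counted, Pou2f1 had 6, Pou2f3 5 and Pou3f3 4. Pou5f1 had the highest count under the other alternatives for the number of peaks. Composite motifs were in 1 Pou5f1 peak and 0 paralog peaks with at most 2 mismatches, 5 and 8 with at most 4, and 1 paralog peak in the central 200 bp. SOX cores were in 2 and 4 peaks in the central 200 bp. Octamers with 1 mismatch were in 3 and 21. The share of genes with a peak became 58.7% with 25 kb, 73% with 50 kb, 84.0% with the most upstream TSS alone and 77.8% over all annotated genes. The share with fewer peaks than Pou5f1 became 95.7%, 98.0%, 99.7% and 99.5% in that order, and 99.8% by density.

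No paired analysis was possible because merged coordinates hold nothing that belongs to a single library. SOX2 OFF was therefore not set against SOX2 ON, and no fit left out a replicate.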

Other observations

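Some POU genes outside the 10 described above were counted by the same rule. Pou1f1, a pituitary regulator, had 2 peaks, Pou4f3 had 2, and Pou3f4 and Pou5f2 had 0 each, as did Pou2af1, which encodes a coactivator of POU2 factors. Of the SOX partners and classical OCT4-SOX2 targets counted beside them, Nanog had 12 peaks (6 per 100 kb) and Sox2, the partner of OCT4, had 9 (4.50 per 100 kb), all of them nearest to the Sox2 TSS. Fgf4, a known target with an OCT4-SOX2 element, had 8 peaks, and Sox15 had 6, whereas Utf1, another such target, had 1.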
